A study of Mus musculus with 56 samples.

Results

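The genes described here are 37 genes of the blood vessels of the brain: 30 typical of endothelial cells, which line the vessel, and 7 of mural cells, the pericytes and smooth muscle cells that wrap it. They were chosen by name among the 18088 genes of the deposited table, and all 37 were found and tested. The choice was made with earlier results of these data known, so the shares called among them may partly reflect it. The study sequenced bulk messenger RNA from the prefrontal cortex of 56 C57BL/6J mice at 25 days of age. The mice were heterozygous at Scn2a (HT), which encodes a neuronal sodium channel, by an allele the labels do not describe, or wild type (WT). Their mothers' milk had carried fluoxetine (a serotonin reuptake inhibitor), lithium (a mood stabiliser) or vehicle for 3 weeks, from day 3 to day 24 after birth. There were 9 HT fluoxetine, 10 HT lithium and 10 HT vehicle libraries, and 9 libraries in each of the WT fluoxetine, WT lithium and WT vehicle groups, with 4 or 5 libraries of each sex in every group. The labels name neither dam nor litter, so pups of one treatment may share a mother and p-values of drug effects may then be too small.

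Endothelial cells of brain capillaries form the blood-brain barrier. Tight junctions built on claudin-5 close the gaps between them, nutrients such as glucose, amino acids and lipids cross through dedicated transporters, and efflux pumps return many drugs to the blood. Receptors for VEGF, the angiopoietins, apelin and BMP ligands steer the growth and upkeep of the vessels, and pericytes help to set up and maintain the barrier.

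All values are read counts divided by a size factor per library, as the authors deposited them, and are called normalised reads here. Depth ran from 24253955 to 36385936 reads per library. Scn2a ran from 7583 to 9619 normalised reads (median 8581) in the 29 HT libraries and from 9727 to 13381 (median 12421) in the 27 WT libraries, without overlap. Marker genes of the olfactory bulb or striatum scored more than 1 SD above the mean of all libraries in 19 of the 56. This cut is relative to the 56 libraries themselves. Of the vehicle females, leaving those libraries out kept only HT 2 and 5 and WT 1 and 5, of 5 per genotype. Where a call over both genotypes or between genotypes is lost without those 19 libraries, the adjusted p of the fit to the other libraries is given too.

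Every one of the 37 genes had reads in every library, from a lowest count of 8 reads (Aplnr, in an HT lithium female), and 32 of them had at least 100 reads in each. Per kilobase of exon, mean levels were highest for Slc2a1 (1040 normalised reads per kb), Vtn (883), Rgs5 (850), Itm2a (847) and Cldn5 (805), and lowest for Emcn (28.3) and Aplnr (28.2). Slc2a1, which encodes the glucose transporter GLUT1, is also expressed by astrocytes, and Cspg4, which encodes NG2, by oligodendrocyte precursors, so neither is a measure of vessel cells alone. Levels were also uneven in how much they varied: the coefficient of variation over the 56 libraries was 37.7% for Aplnr and 6.66% for Abcg2, the extremes of the 37 genes. Differences were tested on log2(value + 1) with limma over all 56 libraries, two-sided, with Benjamini-Hochberg adjustment over 17778 genes, and a gene was called at an adjusted p below 0.05. Changes below are on that log2 scale with their standard error (SE). Counts of genes with an unadjusted p below 0.05 are given without the share of all genes at that threshold. They cannot be set against the shares called.

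The promoters of 4 genes on which the drug results turn are shown, picked after their values were seen: Slc2a1 and Mfsd2a were higher in lithium libraries, Kdr and Cldn5 lower. Each run is the 250 bases before a RefSeq transcription start on GRCm38.p6, 5′ to 3′ on the strand of the gene. The run of Slc2a1 is chr4:119108495-119108744 (plus strand), that of Mfsd2a is chr4:122961189-122961438 (minus strand), that of Kdr is chr5:75978456-75978705 (minus strand) and that of Cldn5 is chr16:18776597-18776846 (plus strand). Capitals mark exact matches, on either strand, to 5 short strings: CAGGAA (ETS factors), AACAAT (SOX factors), ACGTG (the hypoxia response core), AGAACA (the glucocorticoid receptor string) and CTTTGA (TCF and LEF).
Slc2a1: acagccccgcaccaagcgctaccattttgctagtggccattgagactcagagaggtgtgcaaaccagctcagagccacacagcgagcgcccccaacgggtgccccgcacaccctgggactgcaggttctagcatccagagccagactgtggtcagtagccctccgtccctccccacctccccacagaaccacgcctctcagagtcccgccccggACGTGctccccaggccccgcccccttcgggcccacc
Mfsd2a: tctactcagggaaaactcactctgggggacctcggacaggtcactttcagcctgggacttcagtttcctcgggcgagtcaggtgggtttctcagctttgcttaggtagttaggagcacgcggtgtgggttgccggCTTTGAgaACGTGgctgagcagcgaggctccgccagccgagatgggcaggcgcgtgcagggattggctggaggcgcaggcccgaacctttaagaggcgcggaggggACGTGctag
Kdr: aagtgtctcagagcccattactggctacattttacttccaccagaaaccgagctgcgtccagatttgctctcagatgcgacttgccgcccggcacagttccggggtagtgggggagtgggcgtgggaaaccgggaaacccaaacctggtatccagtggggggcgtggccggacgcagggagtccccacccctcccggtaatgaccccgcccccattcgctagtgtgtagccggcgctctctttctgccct
Cldn5: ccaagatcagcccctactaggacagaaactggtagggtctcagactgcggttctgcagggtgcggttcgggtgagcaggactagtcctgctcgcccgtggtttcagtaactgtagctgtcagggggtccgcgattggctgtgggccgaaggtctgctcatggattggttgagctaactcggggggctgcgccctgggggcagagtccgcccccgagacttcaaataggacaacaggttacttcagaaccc
ACGTG began 36 bases before the RefSeq start of Slc2a1 and 9 and 107 bases before that of Mfsd2a, which also held CTTTGA at 115 bases. The gene spans given below are from GENCODE, and those of Slc2a1 and Kdr begin inside the runs shown. The ACGTG of Slc2a1 lies across its GENCODE start. The runs of Kdr and Cldn5 held none of the 5 strings. RefSeq promoters were matched for 25 of the 37 genes, in 33 windows of this length. ACGTG was in 12.1% of those windows (of Mfsd2a, Notch3, Slc2a1 and Slc38a5) and in 16.6% of the 32851 windows of all genes. CAGGAA was in 39.4% of the vessel gene windows and 25.7% of all windows, AACAAT in 12.1% and 9.4%, AGAACA in 9.1% and 16.1%, and CTTTGA in 12.1% and 13.8%. No 2 of the strings overlap in the runs shown, and a match describes the letters, not a site in use.

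The lithium comparison asks what maternal lithium did to the offspring's cortex, here over both genotypes (19 lithium against 19 vehicle libraries). The tight junction gene Cldn5, the VEGF receptor gene Kdr and the endothelial surface gene Ecscr fell by 26.2%, 25.3% and 28.7% in lithium libraries, and the apelin receptor gene Aplnr fell by 45.9%. The glucose transporter gene Slc2a1 rose by 26.1%, the VEGF receptor gene Flt1 by 9.37% and the lipid transporter gene Mfsd2a by an amount between those. In all, 16 of the 37 genes were called, where 16.2% of all genes tested were: 3 were called higher, where 9.31% of all genes were, and 13 lower, where 6.85% were. Over the 37 genes, 28 were lower and 9 higher, with a median change of -0.08, against 0.00032 over all genes. Without the 19 libraries with high marker scores, 7 of the 16 calls remained (Cldn5, Ecscr, Kdr, Slc38a5, Itm2a, Slc2a1 and Flt1) and 1136 of all genes were called, against 2872 in the fit to all libraries. In bulk tissue, fewer cells of a type and less RNA per cell cannot be told apart.

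**Figure D1:**
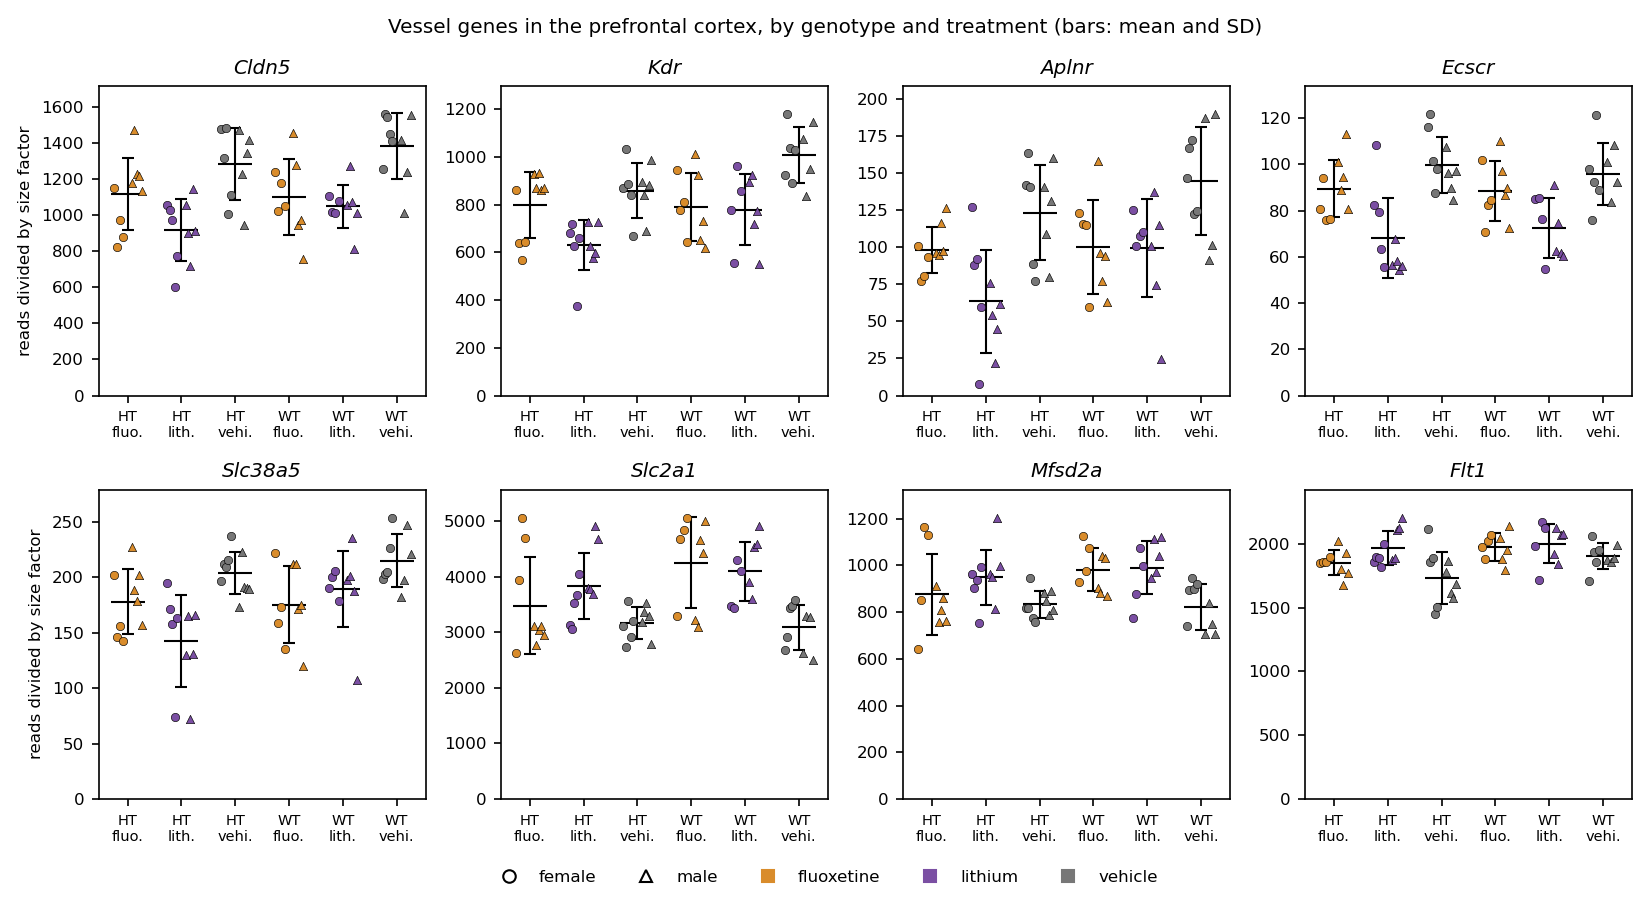
Normalised reads (reads divided by size factor, linear axis from 0) of 8 vessel genes in each of the 6 groups of genotype and treatment; circles are females, triangles males, and bars the mean ± SD of 9 or 10 libraries. Cldn5, Kdr, Aplnr, Ecscr and Slc38a5 had their lowest means in HT lithium libraries, while Slc2a1 and Mfsd2a had higher means in both lithium groups than in the vehicle groups.

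Among junction genes, Cldn5 (chr16:18776847-18778262, plus strand, GRCm38) had 601 to 1275 normalised reads in lithium libraries (median 1020), 755 to 1474 in fluoxetine libraries (median 1143) and 948 to 1560 in vehicle libraries (median 1409). Every one of the 19 lithium libraries lay below the mean of the vehicle libraries of its own sex and genotype, 6 of them lay below every vehicle library, and the ranges overlapped. The change under lithium was -0.44 ± 0.0773 (SE; limma, adjusted p = 8.7e-05). Esam, an adhesion molecule of endothelial tight junctions, fell by 0.19 (adjusted p = 0.011, and 0.201 without the 19 libraries). Pecam1 (-0.13, adjusted p = 0.06) and Cdh5 (-0.12, adjusted p = 0.076), the adhesion molecules CD31 and VE-cadherin, did not pass, and Ocln (occludin) was at 0.01.

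Among transporters, Slc2a1 (chr4:119108711-119137983, plus strand) had 3060 to 4913 normalised reads in lithium libraries (median 3792), 2635 to 5062 in fluoxetine libraries (median 3618) and 2507 to 3574 in vehicle libraries (median 3200). Of the 19 lithium libraries, 18 were above their own vehicle mean and 14 above every vehicle library, a change of 0.33 ± 0.0695 (adjusted p = 0.00066). Mfsd2a (chr4:122946850-122961188, minus strand), whose product carries omega-3 lipids into the brain and restrains transcytosis, had 755 to 1205 normalised reads in lithium libraries (median 964), 641 to 1165 in fluoxetine libraries (median 907) and 705 to 947 in vehicle libraries (median 819). It was higher than its own vehicle mean in 15 of 19 lithium libraries, 12 of them above every vehicle library, and rose by 0.23 ± 0.0538 (adjusted p = 0.0026). Without the 19 libraries Mfsd2a was at 0.24 with an adjusted p of 0.0626. Slc38a5 (chrX:8271133-8280179, plus strand), a carrier of glutamine and other neutral amino acids, moved the other way. It had 72.5 to 235 normalised reads in lithium libraries (median 172), 120 to 227 in fluoxetine libraries (median 174) and 174 to 254 in vehicle libraries (median 205), and fell by 0.38 under lithium (SE 0.0974, adjusted p = 0.0044). The efflux pump genes Abcb1a (P-glycoprotein, 0.08, adjusted p = 0.21) and Abcg2 (0.03) and the organic anion transporter gene Slco1a4 (-0.04) were not called. Reads of Abcb1a may be shared with its relative Abcb1b.

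The 7 receptor genes split within the VEGF family. Kdr (chr5:75932827-75978458, minus strand), the main signalling receptor VEGFR2, had 375 to 961 normalised reads in lithium libraries (median 719), 570 to 1011 in fluoxetine libraries (median 837) and 667 to 1180 in vehicle libraries (median 896). It was below its own vehicle mean in 19 of 19 lithium libraries and below every vehicle library in 8, and fell by 0.42 (SE 0.079, adjusted p = 0.0002). Flt1 (chr5:147561604-147726011, minus strand), VEGFR1, which binds VEGF tightly and signals weakly, had 1714 to 2205 normalised reads in lithium libraries (median 1980.1), 1678 to 2140 in fluoxetine libraries (median 1887) and 1452 to 2116 in vehicle libraries (median 1861). It rose by 0.13 (SE 0.0355, adjusted p = 0.0087) and was above its vehicle mean in 17 of 19. Aplnr (chr2:85136225-85139923, plus strand), the apelin receptor, had 7.90 to 137 normalised reads in lithium libraries (median 88.2), 60.0 to 158 in fluoxetine libraries (median 96.3) and 77.4 to 190 in vehicle libraries (median 141). It fell by 0.89 (SE 0.213, adjusted p = 0.003), and was at -0.93 with an adjusted p of 0.0527 without the 19 libraries. There were 17 of 19 lithium libraries of Aplnr below their vehicle mean, and 3 were far below the others: HT lithium female 4 (7.90), HT lithium male 3 (21.7) and WT lithium male 5 (24.7). The angiopoietin receptor gene Tek (-0.17, adjusted p = 0.019) and its partner Tie1 (-0.16, adjusted p = 0.015) also fell, with adjusted p of 0.228 for Tek and 0.0651 for Tie1 without the 19 libraries, while Eng (-0.06) and Acvrl1 (-0.05), receptors of the TGF-beta and BMP family, did not pass.

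Of the surface and secreted proteins, Ecscr, an endothelial membrane protein with a part in cell migration and apoptosis, had the smallest p of the 37 genes. It had 54.4 to 109 normalised reads in lithium libraries (median 63.2), 70.7 to 113 in fluoxetine libraries (median 87.9) and 75.9 to 122 in vehicle libraries (median 97.0). It fell by 0.49 (SE 0.0721, adjusted p = 4.9e-06), with 18 of 19 lithium libraries below their vehicle mean and 12 below every vehicle library. Egfl7, a secreted factor of growing vessels (-0.23, adjusted p = 0.0029, and 0.064 without the 19 libraries), and Itm2a, a membrane protein enriched at the barrier (-0.13, adjusted p = 0.0028), fell as well. Emcn (-0.12), Vwf (-0.07), Heg1 (-0.04), Ly6c1 (0.03) and Ly6a (0.08) were not called, and Ly6c1 and Ly6a may share reads with related Ly6 genes.

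The transcription factors Erg (-0.19, adjusted p = 0.0095) and Fli1 (-0.19, adjusted p = 0.042), both of the ETS family that keeps endothelial identity, fell, and Sox17 (-0.01) and Sox18 (-0.07) were not called. The calls of Erg (adjusted p = 0.248) and Fli1 (adjusted p = 0.227) were lost without the 19 libraries, and that of Fli1 also in 17 of the 56 fits that left out 1 library. Of the 7 mural genes only Vtn, which encodes vitronectin, was called (-0.16, adjusted p = 0.018), and without the 19 libraries it was at -0.11 (adjusted p = 0.178), so that no mural gene was. The PDGF receptor gene Pdgfrb (-0.08, adjusted p = 0.21), Rgs5 (-0.10, adjusted p = 0.23), Mcam (-0.16, adjusted p = 0.19), Notch3 (-0.02), Abcc9 (0.00) and Cspg4 (0.02) were not. By role the median changes were -0.16 for receptors, -0.13 for junction genes, -0.13 for transcription factors, -0.10 for surface and secreted proteins, -0.08 for mural genes and 0.06 for transporters.

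**Figure D2:**
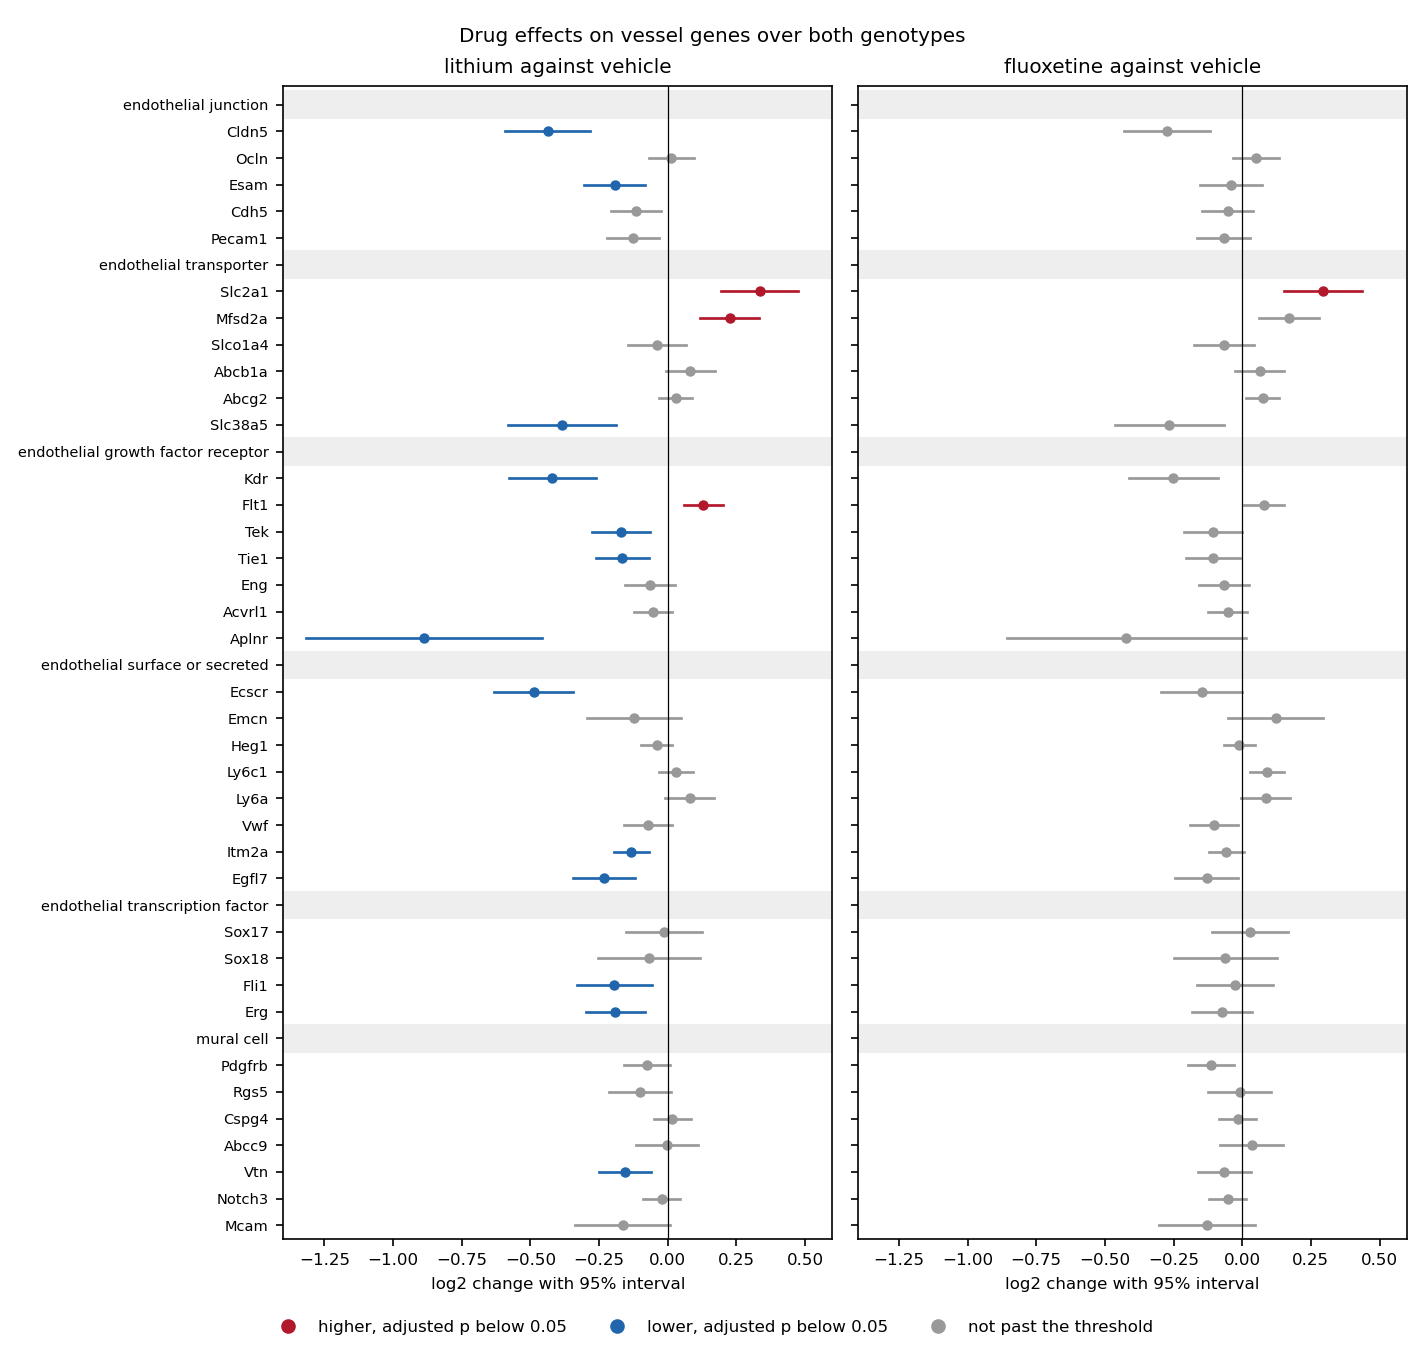
Log2 change against vehicle of the 37 vessel genes over both genotypes, under lithium and under fluoxetine; points are the limma estimates, bars their 95% intervals, and colour marks genes called higher (red), called lower (blue) or not called (grey). Under lithium 3 genes were called higher and 13 lower; under fluoxetine 1 was called, Slc2a1.

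In HT mice 11 of the 37 genes were called under lithium, where 8.77% of all genes were: 1 higher, against 4.64% of all genes, and 10 lower, against 4.13%. In WT mice 5 were called, where 5.71% of all genes were: 2 higher, against 3.84%, and 3 lower, against 1.88%. Cldn5, Kdr and Ecscr were called in both genotypes. Aplnr had 7.90 to 127 normalised reads in HT lithium libraries (median 60.6) and 77.4 to 164 in HT vehicle libraries (median 136), a change of -1.19 (adjusted p = 0.0072), and 24.7 to 137 in WT lithium libraries (median 108) and 91.4 to 190 in WT vehicle libraries (median 147), a change of -0.58 (adjusted p = 0.27). Slc38a5 fell by 0.57 in HT mice (adjusted p = 0.0048) and was at -0.19 in WT mice (adjusted p = 0.45). Slc2a1 was at 0.26 in HT mice (adjusted p = 0.074) and rose by 0.41 in WT mice (adjusted p = 0.013), and Mfsd2a was at 0.18 in HT mice (adjusted p = 0.12) and rose by 0.27 in WT mice (adjusted p = 0.029). The interaction of lithium with genotype was called for none of the 37 genes by limma, edgeR or DESeq2, and 3 had an unadjusted limma p below 0.05: Acvrl1 (-0.16), Ly6a (-0.19) and Tie1 (-0.20). The count in HT mice was 7 without HT lithium female 4, HT lithium male 3 or HT vehicle female 2. The count in WT mice was 2 without WT lithium female 4, WT lithium male 5, WT vehicle male 1 or WT vehicle male 4, and 3 without WT lithium female 2 or 3 or WT vehicle female 2 or 3. Without the 19 libraries with high marker scores, 6 genes were called in HT mice, where 509 of all genes were (1560 with all libraries), and 0 in WT mice, where 212 of all genes were (1016 with all libraries). In HT mice the adjusted p was then 0.0653 for Kdr, 0.0508 for Itm2a, 0.09 for Pecam1, 0.17 for Egfl7 and 0.207 for Esam. In WT mice it was 0.141 for Ecscr, 0.155 for Mfsd2a, 0.156 for Slc2a1, 0.302 for Cldn5 and 0.368 for Kdr.

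Females and males both had lower Cldn5, Kdr and Ecscr under lithium. Cldn5 fell by 0.50 in lithium-exposed females (adjusted p = 0.0037), and males had a fall of it by 0.38 (adjusted p = 0.038). Ecscr fell by 0.40 among females (adjusted p = 0.011), while for males it fell by 0.58 (adjusted p = 0.00058). The rise of Slc2a1 was 0.46 in males (adjusted p = 0.0037), where Mfsd2a rose by 0.34 (adjusted p = 0.0051), and among females Slc2a1 was at 0.21 (adjusted p = 0.19). In females 9 genes were called, all lower, where 7.60% of all genes were called (4.77% higher and 2.83% lower). In males 3 genes were called higher and 4 lower, where 3.77% of all genes were called (2.15% higher and 1.61% lower). No difference between the sexes in the lithium effect was called by limma, edgeR or DESeq2, and 5 of the 37 genes had an unadjusted limma p below 0.05, Mfsd2a among them (-0.23, female minus male).

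Genes that work with these, and markers of other cells, gave the following under lithium, where n of m counts the genes of a list. Of 13 other barrier transporters, 4 rose (among them Abcc4, 0.26, and Slc19a3, 0.21, carriers of organic anions and thiamine) and 4 fell (among them Slc40a1, the iron exporter, -0.29, and Slco1c1, a thyroxine carrier, -0.15). Of 11 other junction genes, Tjp1 rose (0.08) and F11r (-0.24) and Cgnl1 (-0.19) fell. Of 12 ligands of vessel receptors, Pdgfb rose (0.16) and Vegfc (-0.29), Tgfb1 (-0.14) and Angpt1 (-0.14) fell. Ctnnb1, the beta-catenin of the Wnt pathway that induces the barrier, was the only one called of 14 genes of that pathway (-0.21, adjusted p = 2.62e-11), and Tbx18 (-0.27) was the only one of 13 other pericyte genes. Of 7 genes of activated endothelium only Vcam1 was called (-0.12).

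Glucocorticoid response genes were higher in 9 of 11, with 5 called (among them Zbtb16, 0.58, and Tsc22d3, 0.44). Among the hypoxia response genes looked at, Hif3a (0.66) and Kdm3a (0.11) were called higher. The other genes of the hypoxia list are not given here, so these calls do not describe that list as a whole. Markers of meningeal fibroblasts were lower in 9 of 9, with 4 called (Col3a1, -0.39, Col1a1, -0.26, Igf2, -0.24, and Col1a2, -0.17), and summed to 4435 to 7619 normalised reads in lithium libraries (median 6469) and 5085 to 9055 in vehicle libraries (median 7549). Microglia markers were lower in 8 of 8, with 3 called, and summed to 8223 to 11398 in lithium libraries (median 9996) and 9372 to 12205 in vehicle libraries (median 10501). Smooth muscle markers were higher in 8 of 8, with Acta2 called (0.23), and summed to 1754 to 2590 in lithium libraries (median 2232) and 1542 to 2538 in vehicle libraries (median 1926). Of 9 astrocyte markers only Gjb6 was called (0.17), none of the choroid plexus, neuron, striatal, olfactory bulb or red blood cell markers was, and no marker was at 0 in every library. The part of these in the changes of the vessel genes was not tested.

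The fluoxetine comparison (18 fluoxetine against 19 vehicle libraries) gave 1 call among the 37 genes, a higher one, where 0.928% of all genes were called and 0.523% were called higher. Slc2a1 rose by 0.29 over both genotypes (SE 0.0705, adjusted p = 0.031). It was above its own vehicle mean in 12 of 18 fluoxetine libraries, and above every vehicle library in 9. These values came in 2 ranges: 9 fluoxetine libraries (1 HT female, 5 HT males, 1 WT female and 2 WT males) lay between 2635 and 3296 normalised reads, and 9 (3 HT females, 3 WT females and 3 WT males) between 3939 and 5062. All 5 HT fluoxetine males were in the lower range, which falls within the span of the vehicle libraries. By sample title, the higher range held HT females 2 to 4, WT females 2 to 4 and WT males 3 to 5. Over the 18 fluoxetine libraries, deviations from the group mean ran opposite to those of Slc2a1 for Kdr (Pearson r = -0.901) and Cldn5 (-0.741). Those of Mfsd2a followed Slc2a1 (0.756). The labels do not say what the numbers stand for, and their part in the fluoxetine values was not tested. Cldn5 was at -0.27 (adjusted p = 0.07) and below its vehicle mean in 16 of 18 libraries, Kdr at -0.25 (adjusted p = 0.11), Slc38a5 at -0.27 (adjusted p = 0.18), Aplnr at -0.42 (adjusted p = 0.37), Ecscr at -0.15 (adjusted p = 0.35) and Mfsd2a at 0.17 (adjusted p = 0.11). Of the 18 libraries, 11 were below their vehicle mean for Kdr, 13 for Slc38a5, 16 for Aplnr and 12 for Ecscr. For Mfsd2a 14 were above it. In HT mice Kdr was below its vehicle mean in 3 of 9 fluoxetine libraries and above it in 6. Of the 37 genes 26 were lower and 11 higher, with a median of -0.05, against 0.0011 over all genes, and 14 had an unadjusted p below 0.05.

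In WT mice Slc2a1 had 3103 to 5059 normalised reads in fluoxetine libraries (median 4659) and 2507 to 3574 in vehicle libraries (median 3279), and it was the only gene of the 37 called there, where 0.146% of all genes were and 0.101% were called higher. That call was close to the threshold (0.46, adjusted p = 0.048) and was lost in 33 of the 56 fits that left out 1 library, with only the groups compared (adjusted p = 0.184) and without the 19 libraries (adjusted p = 0.218). In HT mice it had 2635 to 5062 in fluoxetine libraries (median 3109) and 2740 to 3567 in vehicle libraries (median 3191), and no gene of the 37 was called by limma, where 0.045% of all genes were and 4 of the 37 had an unadjusted p below 0.05. The interaction of fluoxetine with genotype for Slc2a1 was -0.34 (unadjusted p = 0.02, adjusted p = 0.86), and no interaction among the 37 genes was called by limma, edgeR or DESeq2. In females Slc2a1 rose by 0.41 (adjusted p = 0.032), where 1.20% of all genes were called and 0.709% were called higher, and in males no gene of the table was called by limma and 3 of the 37 had an unadjusted p below 0.05. No difference between the sexes in the fluoxetine effect was called by limma, edgeR or DESeq2, and Ocln (-0.26, female minus male) and Abcg2 (0.12) had an unadjusted p below 0.05. The call of Slc2a1 over both genotypes was lost without the 19 libraries with high marker scores (adjusted p = 0.298) and in a fit of only the groups compared (adjusted p = 0.063). The count was also 0 when any 1 of 8 libraries was left out, and 3 without HT fluoxetine female 1. Those 8 were HT fluoxetine female 3 and 4, WT fluoxetine female 2, 3 and 4, WT fluoxetine male 5, and WT vehicle male 1 and 4. It was 2 without HT vehicle female 4, HT vehicle male 3, WT fluoxetine male 1 or WT vehicle male 2.

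The lithium and fluoxetine comparisons share the 19 vehicle libraries, so the drugs were also set against each other directly, a comparison added after the values were seen. Ecscr was lower in lithium than in fluoxetine libraries, by 0.34 (SE 0.0731, adjusted p = 0.0026), and was the only one of the 37 genes called, where 6.50% of all genes were. A further 9 genes had an unadjusted p below 0.05, all lower in lithium libraries, with Aplnr at -0.47 (adjusted p = 0.2), Emcn at -0.25 (adjusted p = 0.075), Kdr at -0.17 (adjusted p = 0.21) and Cldn5 at -0.16 (adjusted p = 0.22). The count was 3 without HT lithium female 1 and 2 without WT fluoxetine male 5. Against vehicle, the glucocorticoid response genes Zbtb16 (0.45), Tsc22d3 (0.32) and Klf9 (0.15) and the hypoxia response gene Hif3a (0.47) also rose under fluoxetine. The other genes of these lists are not given for fluoxetine.

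The genotype comparison asks how vessel genes stood in Scn2a heterozygotes under each treatment. Heg1, whose product anchors the CCM complex in endothelial cells and is needed for vessel integrity, and Acvrl1, which encodes ALK1, a BMP receptor, were lower in HT than in WT lithium libraries. Heg1 (chr16:33684370-33771576, plus strand) had 1142 to 1422 normalised reads in HT lithium libraries (median 1274) and 1355 to 1561 in WT lithium libraries (median 1458). All 10 HT libraries lay below the WT mean of their sex and 9 below every WT library, a change of -0.20 ± 0.0394 (SE; adjusted p = 0.02). Without the 19 libraries with high marker scores, Heg1 was at -0.22 (adjusted p = 0.119), Acvrl1 was still called and Tie1 was called as well (-0.38, adjusted p = 0.0293). The share of all genes called in that fit is not given. Acvrl1 (chr15:101128522-101145336, plus strand) had 419 to 513 normalised reads in HT lithium libraries (median 469) and 501 to 642 in WT lithium libraries (median 558), with 10 of 10 below the WT mean, 8 below every WT library and a change of -0.25 ± 0.0492 (adjusted p = 0.023). These were the calls among the 37 genes, where 0.0337% of all genes were called. Both calls were lost without HT lithium female 4, HT lithium male 3, WT lithium female 3 or WT lithium male 2. One call was left without HT lithium female 3 or 5, HT lithium male 5, WT lithium female 1, or WT lithium male 1, 3 or 4.

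Under lithium 36 of the 37 genes were lower in HT than in WT libraries, all but Vtn (0.03), with a median of -0.16, against -0.0046 over all genes. Under vehicle 33 were lower (median -0.09) and 0 were called by limma, where 0.00562% of all genes were called. An unadjusted p below 0.05, for which no share of all genes is given, was found for 7 of the 37. Under fluoxetine 31 were lower (median -0.05) and 0 were called by limma, where 0.0112% of all genes were called. In that comparison 6 of the 37 had an unadjusted p below 0.05, again without a share of all genes. Heg1 had 1139 to 1410 normalised reads in HT vehicle libraries (median 1324) and 1324 to 1628 in WT vehicle libraries (median 1485), a change of -0.18 (adjusted p = 0.095, lower in 10 of 10). It had 1224 to 1479 in HT fluoxetine libraries (median 1331) and 1322 to 1670 in WT fluoxetine libraries (median 1445), a change of -0.12. In the vehicle comparison DESeq2 called 1 gene of the 37, Heg1 (adjusted p = 0.0077). The share of all genes that DESeq2 called there is not given, so this call cannot be set against the limma share.

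**Figure D3:**
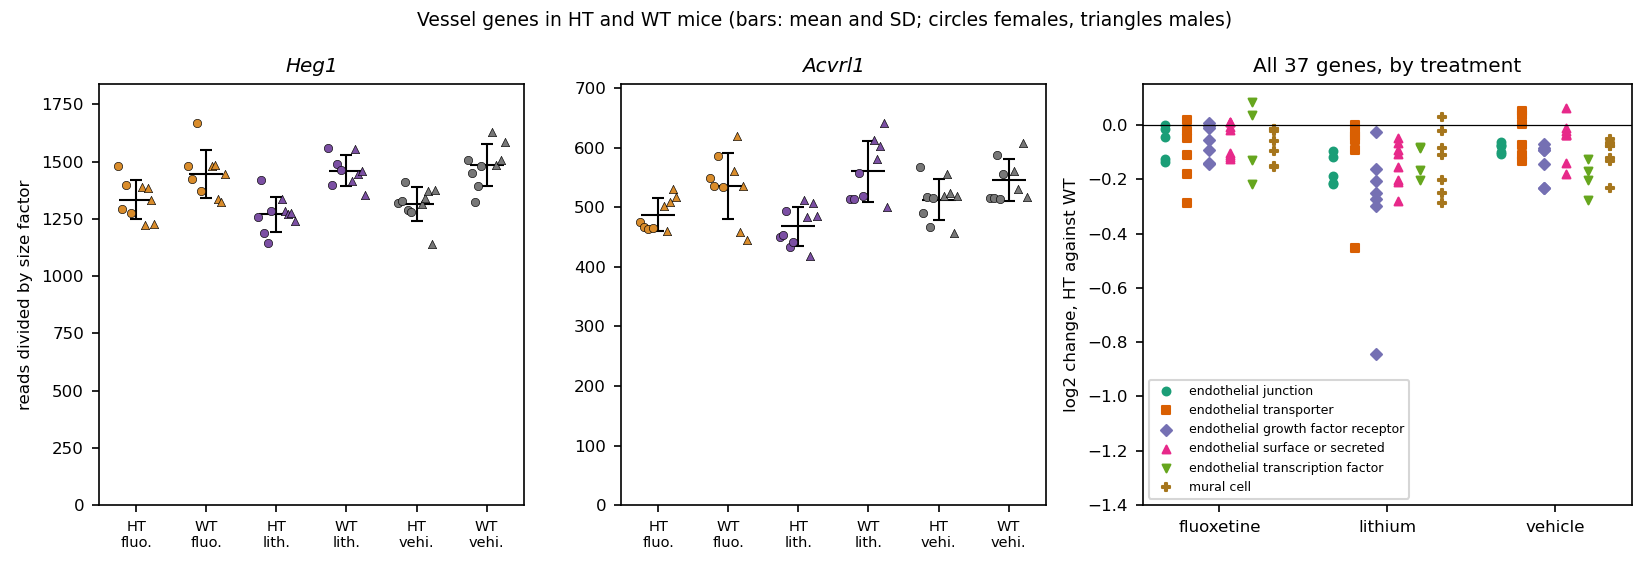
Left and middle, normalised reads of Heg1 and Acvrl1 by treatment, with HT left of WT, circles for females, triangles for males and bars for the mean ± SD of 9 or 10 libraries; right, the log2 change of HT against WT for each of the 37 genes under each treatment, grouped by role. Mean Heg1 was lower in HT libraries under all 3 treatments, and 27 of the 37 genes were lower under each of them.

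Over the 3 treatments together, a comparison added after these values were seen, all 37 genes were lower in HT mice, with a median of -0.10, against 0.00012 over all genes. Of them 3 were called, where 0.152% of all genes were and 0.101% were called lower. Heg1 was lower by 0.17 on the log2 scale (-0.17 ± 0.023, adjusted p = 2.4e-05), with the smallest p but 1 of all genes tested, and Acvrl1 by 0.16 (-0.16 ± 0.0287, adjusted p = 0.0022). Abcc9, which encodes the sulfonylurea receptor of the pericyte potassium channel, was lower by 0.22 (-0.22 ± 0.0464, adjusted p = 0.015), a call lost without the 19 libraries with high marker scores (adjusted p = 0.163). The count of calls was 5 without WT lithium male 5. It had 246 to 343 normalised reads in HT fluoxetine libraries, 257 to 327 in HT lithium libraries and 231 to 364 in HT vehicle libraries, against 291 to 465 in WT fluoxetine, 283 to 428 in WT lithium and 292 to 386 in WT vehicle libraries, so the genotypes overlapped. A further 18 genes had an unadjusted p below 0.05, among them Tie1 (-0.16, adjusted p = 0.09), Notch3 (-0.11, adjusted p = 0.091), Rgs5 (-0.18, adjusted p = 0.12) and Pecam1 (-0.14, adjusted p = 0.17). Beside the HT and WT difference under lithium, olfactory bulb markers were higher in 9 of 9 (median 0.64, none called) and summed to 3815 to 18990 normalised reads in HT libraries (median 5718) and 3795 to 8440 in WT libraries (median 4025), and microglia markers were higher in 8 of 8. Astrocyte markers were lower in 9 of 9 over the 3 treatments (median -0.06, none called). They summed to 132356 to 150996 normalised reads in HT fluoxetine libraries (median 136061) and 134888 to 162113 in WT fluoxetine libraries (median 143237). Under lithium they summed to 129731 to 141511 in HT libraries (median 134935) and 133154 to 155947 in WT libraries (median 145474), and under vehicle to 116384 to 166686 in HT libraries (median 143286) and 136431 to 163312 in WT libraries (median 149630). Smooth muscle markers were lower in 7 of 8 over the 3 treatments (median -0.06, none called), with median sums of 2056 in HT and 2180 in WT fluoxetine libraries, 2070 in HT and 2257 in WT lithium libraries, and 1869 in HT and 1957 in WT vehicle libraries. Red blood cell markers were higher in 5 of 5 (median 0.28) and meningeal fibroblast markers lower in 7 of 9 (median -0.02), none called. The part of these in the genotype difference of the vessel genes was not tested. With olfactory bulb and striatal scores as covariates, Heg1 under lithium had an adjusted p of 0.11, and over the 3 treatments it passed under all 10 alternatives and without each of the 56 libraries.

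Within groups, vessel genes also varied from library to library, and this was examined as each library's deviation from the mean of its group of genotype, treatment and sex. Kdr and Slc2a1 were taken as anchors after values were seen, giving 71 relations. Over the 56 libraries the deviations of Aplnr followed those of Kdr (Pearson r = 0.793, Spearman rho = 0.785, permutation p = 1e-05, the smallest the 100000 permutations can give, adjusted p = 0.000101). So did those of Cldn5 (r = 0.661, rho = 0.655). Without the 2 libraries farthest from the median of Kdr, r was 0.777 for Aplnr and 0.634 for Cldn5. Of 35 genes set against Kdr, 23 passed after adjustment, each with a positive r, and the median r was 0.467. Libraries low in Kdr were low in many endothelial and mural genes. Of the mural genes, Pdgfrb (r = 0.661), Rgs5 (0.628), Notch3 (0.525), Cspg4 (0.461) and Vtn (0.403) passed by Pearson r, and Abcc9 (0.261) and Mcam (0.306) did not. Endothelial genes that did not pass included Ecscr (0.251) and Mfsd2a (-0.022). HT lithium female 4 had the lowest value of Kdr (375), Cldn5 (601), Aplnr (7.90) and Itm2a (1129) of all 56.

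Of 36 genes set against Slc2a1 over the 56 libraries, 10 passed, 8 with a negative r and 2 with a positive one. Because Slc2a1 fell into 2 ranges under fluoxetine, 5 of the 71 relations were also computed over the 38 lithium and vehicle libraries. They were picked with the results over all 56 libraries known, and the 38 are part of the 56. They are therefore no independent check, and their adjusted p covers only these 5. Mfsd2a, the other transporter gene that rose under lithium, followed Slc2a1 (r = 0.558, rho = 0.567, adjusted permutation p = 0.0024 and 0.0017; r = 0.583 without the 2 farthest libraries). Pdgfrb, the pericyte receptor gene, ran opposite to Slc2a1 (r = -0.527, rho = -0.522, adjusted permutation p = 0.0024; r = -0.511 without the 2 farthest). The relation of Kdr with Slc2a1 passed over all 56 libraries (r = -0.526, rho = -0.524, adjusted permutation p = 0.00193 and 0.00292; r = -0.465 without the 2 farthest) and did not pass over the 38 (r = -0.302, rho = -0.333, adjusted permutation p = 0.093 and 0.062). Kdr kept its relation with Aplnr (r = 0.818) and Cldn5 (r = 0.606) in these libraries.

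**Figure D4:**
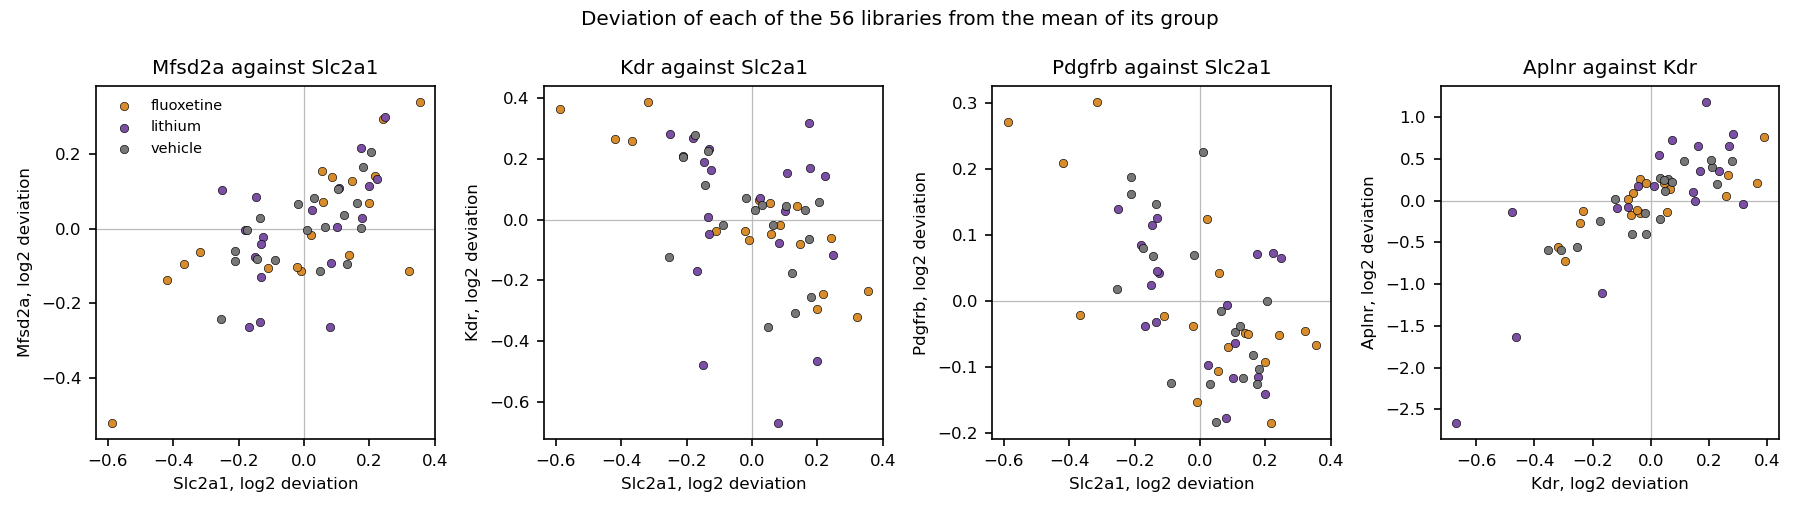
Deviation of each of the 56 libraries from the mean log2 value of its group of genotype, treatment and sex, for Mfsd2a, Kdr and Pdgfrb against Slc2a1 and for Aplnr against Kdr; each point is 1 library. Mfsd2a rose with Slc2a1 and Pdgfrb ran opposite to it, and Aplnr followed Kdr closely.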

How the data were processed

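The authors deposited 1 table of gene values for the 56 libraries, prepared with a strand-keeping Illumina mRNA kit (TruSeq), per the labels' protocols. The submitters' processing notes name Salmon 0.11.2, R 3.6.0, DESeq2 1.19.11 and GRCm38, with no role for each. The deposited signal values are read counts divided by a size factor of each library (0.818 to 1.23). Multiplied back, 100% of values came out whole within 0.01 of a read, and edgeR and DESeq2 were run on those reads as alternatives. In 3 libraries the factor was near 1, so wholeness could not show it.

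The values were thus not raw counts, and limma 3.58.1 (R 4.3.3, variance trend, robust) was fitted to log2(value + 1) with 12 group means of genotype, treatment and sex. Genes needed a value of at least 10 in 4 libraries, which left out 310. All 37 vessel genes could be named; of each other list, up to 4 called genes per comparison could be, smallest p first. The members and lists were chosen with earlier results of these data known. The comparison of the drugs with each other and the genotype comparison over the 3 treatments were chosen after values were seen. So were the correlation anchors, the relations computed without fluoxetine libraries and the promoters shown. For a single gene, "lower in n of m" sets a library against the mean log2 value of the compared group of its own sex and, for drugs, genotype. For a list of markers or response genes, n of m counts the genes of the list, not libraries. Alternatives used TMM scaling, pseudocounts of 0.5 and 5, no filter, only the groups compared, a replicate block, marker scores as covariates, edgeR 4.0.16, DESeq2 1.42.0, and libraries left out. In simulated data with 200 changed genes among 17778, 77% of those at a log2 change of 0.3 and 98% at 0.6 were recovered for lithium in WT mice, with 13 false calls. The changed genes were drawn only from those above a set mean level, and changes below 0.3, as many here are, were not simulated. Counts were drawn independently, without shared litters or tissue differences between libraries, so these shares may not hold for the real data. Replicates are separate libraries per the labels, which do not say whether pups share a litter, so p-values measure the spread between these libraries. No 2 libraries held identical values. Genes of the same name were matched through GENCODE vM21 on GRCm38.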

Additional observations from a re-analysis of the deposited data

Results flagged for a closer look

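Within the groups of 4 or 5 libraries of 1 sex, genotype and treatment, 12 of 228 tests over 19 vessel genes found a library standing apart from the rest by Dixon's criterion; chance alone gives about 1 in 20. HT lithium female 4 was lowest of its group for Kdr (375.212 normalised reads, next 627.836) and Itm2a (1128.6, next 1440.45), and WT vehicle female 1 for Mfsd2a (740.075, next 894.096) and Tie1 (439.257, next 525.522). Lowest values also stood apart for Aplnr in WT fluoxetine female 4 (59.9638, next 115.054), Erg in HT fluoxetine female 4 (165.012, next 191.117), Heg1 in HT vehicle male 4 (1139.09, next 1314.33) and Vtn in WT vehicle male 2 (1614.14, next 1914.14). Highest values stood apart for Acvrl1 in WT lithium female 3 (558.228, next 518.9), Cldn5 in HT fluoxetine male 2 (1473.77, next 1229.76), Ecscr in HT lithium male 2 (67.57, next 57.9854) and Vtn in HT lithium male 1 (2033.25, next 1658.25).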

How the results depend on the processing

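For vessel genes with an unadjusted p below 0.05, none of the log2 changes under 10 alternatives or with 1 library left out changed sign. Of these, 1102 of 1154 and 6326 of 6496 also kept their side of the threshold. Under the alternatives 33 lost a call and 19 gained one, and with 1 library left out 131 lost a call and 39 gained one. Many of these changes were not called in the main fit, so keeping their side often means staying uncalled. Fits with 1 library left out share all their other libraries with the main fit, so their directions could hardly differ. Counts of called vessel genes moved most without the 19 libraries with high marker scores: 7 for lithium over both genotypes, 6 for lithium in HT, 0 for lithium in WT, and 0 for fluoxetine in WT and over both genotypes. With only the groups compared, they were 7 for lithium in HT and 0 for fluoxetine in WT and over both genotypes. DESeq2 gave 2 for fluoxetine in WT and over both genotypes (adding Mfsd2a and Cldn5), 1 for HT against WT under vehicle and 5 for HT against WT over the 3 treatments (adding Rgs5 and Tie1). The share of all genes that DESeq2 called in these comparisons is not given, so its counts cannot be set against the limma shares. Marker scores as covariates gave 1 for HT against WT under vehicle and 1 under lithium. The cause was not tested, beyond fewer libraries in the first of these settings.

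With 1 library left out, counts ran from 15 to 18 for lithium over both genotypes, 7 to 13 in HT and 2 to 7 in WT, from 0 to 3 for fluoxetine over both genotypes and 0 to 1 in WT, from 0 to 2 for HT against WT under lithium, 0 to 1 under vehicle and 3 to 5 over the 3 treatments, and from 1 to 3 for lithium against fluoxetine. They stayed at 0 for fluoxetine in HT, HT against WT under fluoxetine, both interactions and both sex differences.

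Deviations of same-numbered libraries had a median correlation of -0.00161 over 292 pairs (highest 0.429). Those of other numbers had a median of -0.000226 over 1144 pairs (highest 0.331). The numbers are those of the sample titles, which differ from the library names for some WT libraries. A median over all pairs cannot show whether some libraries were paired. With the replicate block, 2 vessel genes were called for fluoxetine over both genotypes, the added one being Cldn5 (adjusted p = 0.042), and no other count of vessel genes moved by more than 1.5 times. Over all genes, counts under the alternatives ran from 1136 to 3477 for lithium over both genotypes (2872 as reported), 6 to 307 for fluoxetine (165) and 16 to 66 for HT against WT over the 3 treatments (27).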
